A study of Mus musculus with 6 samples.

Results

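Cells beside the sagittal suture were compared with cells of parietal bone away from the sutures in 2-month-old mice. The comparison held 16536 cells, 8580 in the suture library (CBMA) and 7956 in the distant library (CBMD), of 37576 cells kept in the 6 libraries of the series. The study captured single cells of the mouse calvaria at 2, 12 and 18 months on a droplet platform (10x Genomics), with 1 library for each age and site. Members were cells with 500 to 5000 detected genes, over 500 UMIs (unique molecular identifiers, each counting 1 captured RNA molecule) and under 25% mitochondrial UMIs. They were examined together and in 3 classes gated on marker genes. The neutrophil gate took cells with at least 2% of their UMIs from S100a8 and S100a9, the monocyte gate at least 3 UMIs of Ly6c2 and 1 of Ccr2, and the T gate at least 2 UMIs of Cd3d, Cd3e and Cd3g together.

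Both groups were untreated wild-type C57BL/6 mice of 2 months, stated to be male, with 6 to 8 animals of the same age combined before capture. CBMA contained the sagittal suture with its mesenchyme and the parietal bone next to it, and CBMD the part of the parietal bone that lies away from sutures. Dura mater and periosteum were stripped from all tissue, which was then minced, ground and digested with collagenases and dispase. Red blood cells were lysed and dead cells removed, so counts of erythroid cells describe what survived lysis. The sources used here do not state whether the same mice gave both sites. Each site was 1 pooled library, so the difference between sites, between dissections and between captures cannot be told apart and no value has a replicate check. All intervals are exact 95% intervals and cover counting error only.

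Neutrophils arise in marrow from dividing precursors. Promyelocytes make the primary granule proteins, myelocytes then make the secondary granule proteins, and the mature cell stops dividing and gains tertiary granules and the exit receptor Cxcr2. Mature neutrophils and monocytes answer microbial products and tissue injury by switching on cytokine and chemokine genes, largely through the transcription factor NF-kappaB. Skull marrow is known to supply such myeloid cells to the adjacent meninges, and the suture is a fibrous joint that houses mesenchymal stem cells.

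The depth of the libraries was close. The kept cells held 50754324 UMIs in CBMA and 44525787 in CBMD, with medians of 3930.5 and 3641.5 UMIs and of 1361 and 1307 genes a cell. Only 14 cell barcodes occurred in both. Markers that the gates did not use were present in them. Retnlg, a gene of mature neutrophils, stood at 17056 CPM in CBMA and 17481 in CBMD neutrophils and at 605 and 739 CPM in monocytes. F13a1, coagulation factor XIII of monocytes, stood at 1307 and 1407 CPM in monocytes, and Trac, the T-cell receptor alpha constant gene, at 423 and 379 CPM in T cells. By the rule itself S100a8 and S100a9 were high in neutrophils, at 21.2% and 18.2% of UMIs. CPM is the depth-scaled level of a gene, its UMIs divided by all UMIs of that class and library on the usual CPM scale, and each ratio is CBMA over CBMD. Neutrophil transcripts also reached the other gates, with S100a8 and S100a9 at 0.973% and 0.863% of monocyte UMIs and at 1.67% and 3.91% of T-gate UMIs. The gates overlapped in 208 and 154 cells for neutrophil and monocyte, in 21 and 21 for T and neutrophil, and in 20 and 11 for T and monocyte.

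CBMA held fewer neutrophils and more monocytes, T cells and cycling cells than CBMD. The neutrophil gate took 4980 cells of CBMA, 58.0% (57.0 to 59.1), and 4998 of CBMD, 62.8% (61.7 to 63.9). The monocyte gate took 2510 cells, 29.3% (28.3 to 30.2), and 1891 cells, 23.8% (22.8 to 24.7). The T gate took 230 cells, 2.68% (2.35 to 3.04), and 89 cells, 1.12% (0.899 to 1.37), a share ratio of 2.40. None of these interval pairs overlapped. With every cell thinned to 1000 UMIs, which left out 77 and 119 shallower cells, the monocyte shares were 6.62% and 5.13% and the T shares 1.36% and 0.536%, so the order of the sites was as with all UMIs.

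Other marker gates differed more. Cells with at least 10 UMIs of Mpo, the myeloperoxidase of primary granules, are called progenitors here on that gene alone. They were 312 cells, 3.64% (3.25 to 4.05), in CBMA and 93 cells, 1.17% (0.944 to 1.43), in CBMD. Of these, 115 and 25 were also past the neutrophil gate and 116 and 30 past the monocyte gate. Those past neither were 1.10% and 0.515% of cells, a share ratio of 2.13. Cells of the B lineage, gated on the B-cell receptor partners Cd79a and Cd79b, were 144 and 70, or 1.68% and 0.880%. Cycling cells, with at least 2 UMIs of Mki67 and Top2a, were 2246 and 1384, or 26.2% and 17.4%. Erythroid cells, with at least 10% of UMIs from hemoglobin genes, were 35 cells, 0.408% (0.284 to 0.567), against 3 cells, 0.0377% (0.00778 to 0.110), and basophils were 25 and 11 cells, 0.291% (0.189 to 0.430) and 0.138% (0.0690 to 0.247), intervals that overlap. The resident cells did not separate the sites: stromal cells, gated on collagen genes and Sparc, were 77 and 75, 0.897% and 0.943%, and endothelial cells were 39 and 36, 0.455% and 0.452%. Of the 10 gates, the neutrophil gate was the one with a higher share in CBMD and intervals that did not overlap.

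**Figure D1:**
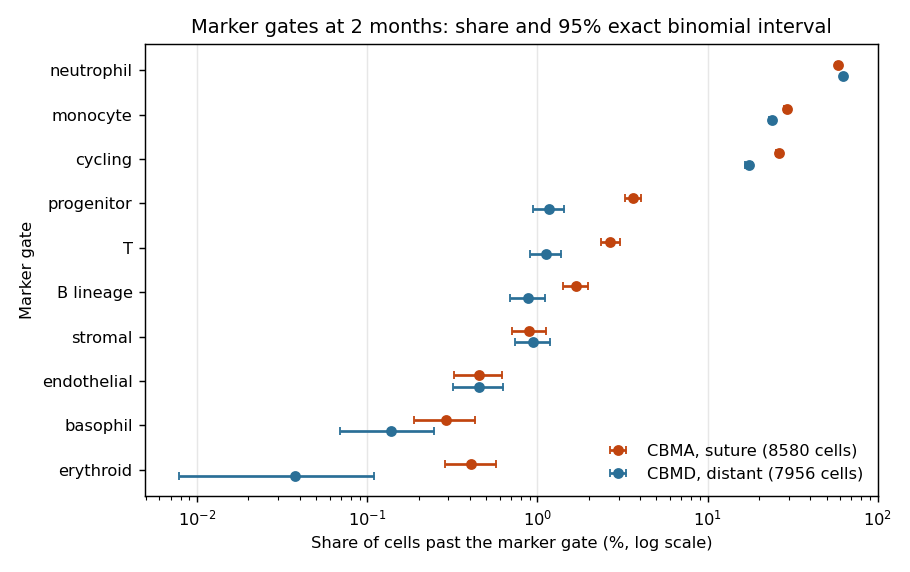
Share of kept cells past each marker gate in CBMA (8580 cells) and CBMD (7956 cells) at 2 months, in percent on a log scale, with exact 95% binomial intervals. Monocyte, cycling, progenitor, T, B lineage and erythroid points lie to the right in CBMA, the neutrophil point in CBMD (62.8%), and the stromal and endothelial points nearly coincide.

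The neutrophils of the 2 sites differed in maturity. In the neutrophil gate of 11676 genes with at least 50 UMIs, 2355 (20.2%) were at least 1.5-fold higher in CBMA and 1073 (9.19%) at least 1.5-fold lower. All 5 measured primary granule genes were among the higher, with a median log2 ratio of 2.10 against 0.10 over all genes, and so were all 7 secondary granule genes, with a median of 2.12. Prtn3, the serine protease proteinase 3, stood at 719 CPM in CBMA and 156 in CBMD, a ratio of 4.62 (4.44 to 4.81). Elane, neutrophil elastase, stood at 684 and 152 CPM (ratio 4.49). Mpo stood at 541 and 126 CPM (ratio 4.30), and Ctsg, cathepsin G, had a ratio of 3.70. Every primary granule gene was thus over 3-fold higher in the suture library.

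Among secondary granule genes the ratios ran from 1.96 to 6.98. Camp, the cathelicidin antimicrobial peptide, stood at 10582 CPM in CBMA and 1515 in CBMD (6.98, 6.90 to 7.07). Ltf, the iron-binding protein lactoferrin, stood at 1485 and 268 CPM (5.55), and Ngp, neutrophilic granule protein, at 5398 and 1244 CPM (4.34). Cebpe, the transcription factor that drives the secondary granule programme, stood at 135 and 33.9 CPM (3.99, 3.66 to 4.35). Lcn2, the siderophore-binding lipocalin, differed least, at 5711 and 2913 CPM (1.96). In cells thinned to 1000 UMIs, 35.1% of CBMA neutrophils and 10.6% of CBMD neutrophils had a Camp UMI, against 53.2% and 21.5% with all UMIs.

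Camp RNA was also found in gates whose cells are not known to make it. In thinned cells 9.37% of CBMA and 2.65% of CBMD monocytes had a Camp UMI (49.6% and 14.1% with all UMIs), as did 13.1% (9.02 to 18.2) and 5.62% (1.85 to 12.6) of T-gate cells (42.2% and 13.5%). Median depths were 3129 and 3119.5 UMIs in neutrophils 9586 and 10680 in monocytes and 4716.5 and 4585 in T-gate cells. In thinned cells the CBMA neutrophil share lay above both background shares, and the CBMD share, with an interval of 9.74 to 11.5, lay above that of monocytes but within the T-gate interval. What part free RNA has in the site ratios of single cells was not tested.

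Genes of the tertiary granule and of mature neutrophils did not share this shift. None of 13 was at least 1.5-fold higher and 2 were lower, with a median log2 ratio of -0.39. Mmp8, neutrophil collagenase, stood at 1099 CPM in CBMA and 900 in CBMD (1.22), Mmp9, gelatinase B, at 1298 and 1200 CPM (1.08), and Retnlg, a resistin-like protein of mature neutrophils, at 17056 and 17481 CPM (0.976). Cxcr2, the receptor that draws mature neutrophils out of marrow, stood at 773 and 892 CPM (0.866), and Cxcr4, which retains them, at 200 and 304 CPM (0.657).

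Cell cycle genes went with the granule genes. In neutrophils 31 of 37 S phase genes and 46 of 54 G2 and M phase genes were at least 1.5-fold higher in CBMA and none lower, with median log2 ratios of 1.22 and 1.47. Mcm2, a subunit of the replicative helicase, stood at 22.5 CPM in CBMA and 5.00 in CBMD (4.50, 3.60 to 5.66), and Rrm2, the ribonucleotide reductase subunit that supplies nucleotides, at 49.4 and 12.4 CPM (3.99). The proliferation marker Mki67 stood at 245 and 67.9 CPM (3.60). Histone genes were among the highest of all ratios, with Hist1h1d, a linker histone, at 559 and 84.8 CPM (6.58) and Hist1h2bm at 66.4 and 8.76 CPM (7.58). Core histone genes are near-identical copies among which reads can be split, so their single ratios are uncertain. Past the cycling gate were 739 CBMA neutrophils, 14.8% (13.9 to 15.9), and 209 CBMD neutrophils, 4.18% (3.64 to 4.77), or 7.0% and 1.62% of thinned cells. In monocytes the same gate took 50.6% and 48.4%, and 17.9% and 18.1% of thinned cells, so cycling shares separated the sites in neutrophils and hardly in monocytes.

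**Figure D2:**
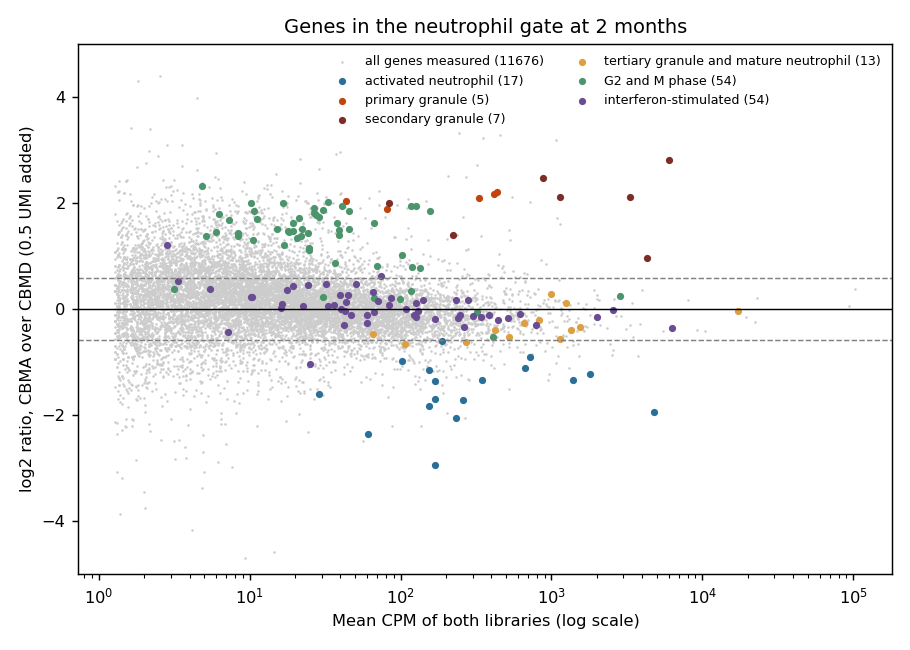
Log2 ratio of CBMA over CBMD for each of 11676 genes measured in the neutrophil gate at 2 months, against the mean CPM of both libraries on a log scale, with gene lists in colour and dashed lines at 1.5-fold. Primary granule, secondary granule and G2 and M phase genes lie above 0, activated neutrophil genes below it, and interferon-stimulated genes scatter about it (median 0.01).

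The neutrophils were also split by the secondary granule genes Camp, Ltf and Ngp, a split chosen after seeing the data. Cells with at least 1% of UMIs from these genes are called granule-high and the rest granule-low. Primary granule genes took no part in the split. Granule-high cells were 965 of 4980 CBMA neutrophils, 19.4% (18.3 to 20.5), and 179 of 4998 CBMD neutrophils, 3.58% (3.08 to 4.13), and thinning left these shares at 19.6% and 3.67%. Within granule-high cells 59.8% (56.6 to 62.9) were past the cycling gate in CBMA and 52.5% (44.9 to 60.0) in CBMD, and within granule-low cells 4.03% (3.45 to 4.69) and 2.39% (1.97 to 2.86). The granule-high intervals overlap and the granule-low ones do not. Lcn2 and Cxcr4 were under 1.5-fold apart in either class, with log2 ratios of 0.22 and 0.43 for Lcn2 and of -0.48 and -0.45 for Cxcr4 in granule-high and granule-low cells.

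Some site differences were smaller within the split and others were not. Of 7628 genes measured in granule-high cells, 1121 (14.7%) were at least 1.5-fold higher in CBMA and 796 (10.4%) lower. There 18 of 34 S phase and 11 of 53 G2 and M phase genes were higher, with median log2 ratios of 0.56 and 0.32. All 5 primary granule genes were still higher, with a median of 1.34, and 11 of 13 tertiary granule and mature neutrophil genes were lower, with a median of -1.04. Mpo stood at 580 CPM in CBMA and 205 in CBMD granule-high cells (2.83, 2.47 to 3.25), Retnlg at 3082 and 6240 CPM (0.494), and Cxcr2 at 141 and 319 CPM (0.441). Thus within granule-high cells, too, genes of earlier stages were higher and most genes of later stages lower in CBMA. In thinned cells a Retnlg UMI was seen in 36.25% and 52.8% of granule-high cells, against 16.6% and 32.6% of T-gate cells. The part of free RNA in these later-stage ratios was not tested.

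Of 11110 genes measured in granule-low cells, 1302 (11.7%) were higher in CBMA and 723 (6.51%) lower. All 5 primary granule genes, 24 of 36 S phase genes and 37 of 54 G2 and M phase genes were among the higher, with median log2 ratios of 2.08, 0.74 and 0.81, while 1 G2 and M phase gene was lower. Prtn3 stood at 600 and 140 CPM in granule-low cells (4.29) and Mpo at 526 and 121 CPM (4.35). The split thus left the primary granule difference in place, and granule-low cells were not matched for maturity. Of the Mpo UMIs, 12.8% in CBMA and 22.1% in CBMD came from 3 cells. None of the 13 tertiary granule and mature neutrophil genes was 1.5-fold apart in granule-low cells, with a median of -0.06.

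Activation genes differed in the opposite direction. They were taken from an activated neutrophil list of cytokines, chemokines, NF-kappaB feedback genes and their companions. Like the other lists, it was chosen with earlier results of these data known. All 17 of its genes were at least 1.5-fold lower in CBMA neutrophils, with a median log2 ratio of -1.35, where 9.19% of all genes were lower. Summed, the list took 5815 CPM in CBMA and 16966 in CBMD. Cxcl2, the chemokine that recruits further neutrophils, stood at 1977 CPM in CBMA and 7547 in CBMD, 3.82-fold lower (ratio 0.262, 0.259 to 0.265). Ccl4, a chemokine for monocytes and T cells, stood at 38.7 and 299 CPM (0.129), and its relative Ccl3 had 387 UMIs in CBMA and 1984 in CBMD (0.196). Ccl4 and Ccl3 lay furthest from 1 in the list.

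Cytokines and receptors of the list followed. Il1b, the inflammatory cytokine interleukin 1 beta, stood at 1083 CPM in CBMA and 2541 in CBMD (0.426, 0.420 to 0.433). Tnf, tumour necrosis factor, stood at 69.3 and 137 CPM (0.507) and Osm, the cytokine oncostatin M, at 95.2 and 243 CPM (0.392). Cd14, the co-receptor for bacterial lipopolysaccharide, stood at 90.5 and 377 CPM (0.240). Nlrp3, the inflammasome sensor that leads to interleukin 1 beta release, stood at 197 and 497 CPM (0.396). Il1b and the sensor gene were thus both lower in CBMA neutrophils.

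The feedback genes that NF-kappaB induces against itself were lower as well. Nfkbia, the inhibitor that holds NF-kappaB in the cytoplasm, stood at 788 CPM in CBMA and 1980 in CBMD (0.398, 0.390 to 0.405). Tnfaip3, the ubiquitin-editing inhibitor A20, stood at 67.4 and 240 CPM (0.281). Acod1, which makes itaconate from a citric acid cycle intermediate, stood at 79.9 and 258 CPM (0.310), and Hcar2, the receptor for the ketone body beta-hydroxybutyrate, at 121 and 396 CPM (0.305). Arg2, the mitochondrial arginase, came nearest to the limit of 1.5-fold, at 149 and 228 CPM (0.655).

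The difference showed in the share of cells with a UMI. In thinned cells a Cxcl2 UMI was seen in 62.3% (60.9 to 63.6) of CBMA and 90.9% (90.1 to 91.7) of CBMD neutrophils, and in 73.9% and 95.1% with all UMIs. Il1b was seen in 51.4% and 77.9% of thinned neutrophils (66.8% and 90.8% with all UMIs). Cxcl2 was seen in 9.61% and 33.7% of thinned T-gate cells and Il1b in 5.68% and 24.7%, at median depths of 4716.5 and 4585 UMIs. The neutrophil shares lay above these T-gate shares in both libraries. The 3 cells richest in Cxcl2 held 0.580% and 0.419% of its neutrophil UMIs.

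Activation genes were also compared within the granule classes, which the split did not match for maturity. In granule-low cells 16 of 17 activation genes were at least 1.5-fold lower in CBMA, with a median log2 ratio of -1.05, where 6.51% of all genes were lower. Cxcl2 stood at 2638 CPM in CBMA and 7903 in CBMD granule-low cells (0.334, 0.330 to 0.338), with a UMI in 74.3% and 92.7% of thinned cells. Il1b stood at 1457 and 2662 CPM (0.547), Cd14 at 120 and 393 CPM (0.306), and Tnf at 69.6 and 140 CPM (0.495). In granule-high cells 15 of 16 were lower, with a median of -2.55. There Cxcl2 stood at 211 and 1750 CPM (0.120) and Ccl4 at 3.79 and 102 CPM (0.0373), while Tnf stood at 68.5 and 74.0 CPM (0.925, 0.727 to 1.19). A Cxcl2 UMI was seen in 12.5% (10.5 to 14.8) and 43.8% (36.4 to 51.4) of thinned granule-high cells, intervals that overlap those of the T gate, 6.12 to 14.2 and 24.0 to 44.5. Il1b was seen in 6.67% and 23.6% of them, against 5.68% and 24.7% in the T gate. Ccl4 was seen in 0 of 960 cells in CBMA, which allows a share of up to 0.384%, and in 3.93% in CBMD, against 1.31% and 7.87% in the T gate. The Cxcl2, Il1b and Ccl4 shares of granule-high cells thus did not lie clearly above those of the T gate. That gate overlapped the neutrophil gate in 21 cells of each library, and what part free RNA has in the granule-high shares was not tested.

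**Figure D3:**
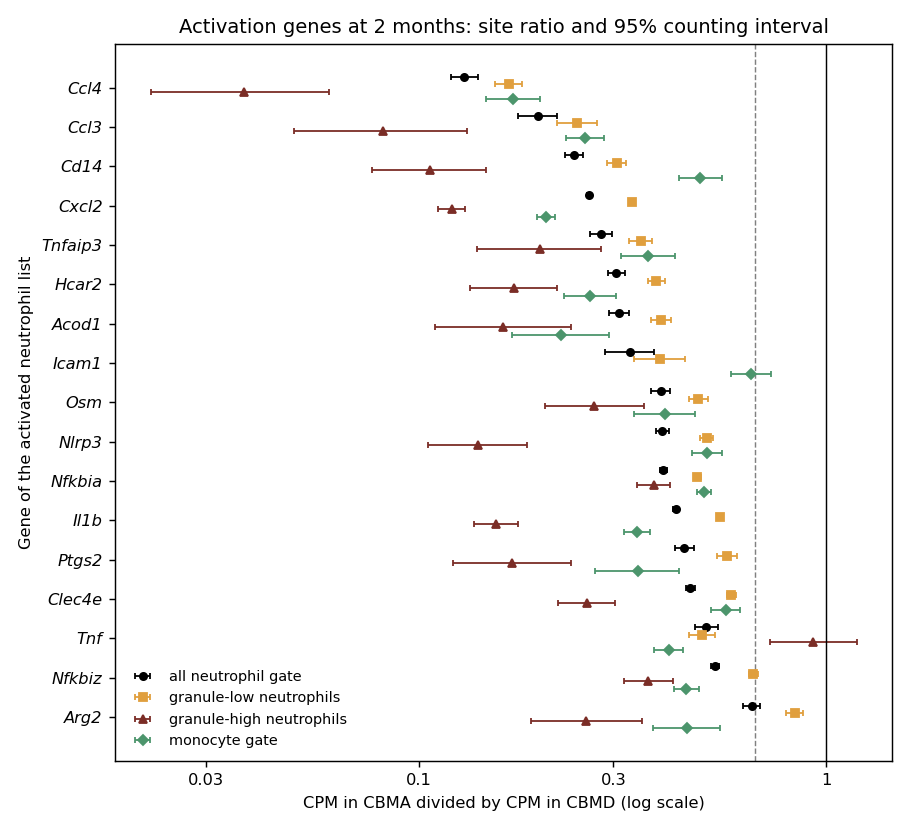
CPM in CBMA divided by CPM in CBMD on a log scale for the 17 activated neutrophil genes in all neutrophils, granule-low neutrophils, granule-high neutrophils and monocytes, with exact 95% counting intervals, a solid line at 1 and a dashed line at 1.5-fold lower. Nearly every point lies left of the dashed line, with Tnf in granule-high cells (0.925) near 1.

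Promoter sequences are shown for genes at both ends of these differences. They come from RefSeq (GRCm38.p6) and run from 250 bases before to 50 after an annotated gene start. Of the 17 activation genes 11 had a promoter in the table, and 3 of these 11 (27.3%), Cxcl2, Nfkbia and Tnfaip3, held a short form of the NF-kappaB site on either strand (GGG and TTCC with any 3 bases between them), against 6.31% of 27025 genes. The motif was chosen after seeing the data. The matches are in capitals.
Cxcl2, chr5:90903649-90903948, plus strand: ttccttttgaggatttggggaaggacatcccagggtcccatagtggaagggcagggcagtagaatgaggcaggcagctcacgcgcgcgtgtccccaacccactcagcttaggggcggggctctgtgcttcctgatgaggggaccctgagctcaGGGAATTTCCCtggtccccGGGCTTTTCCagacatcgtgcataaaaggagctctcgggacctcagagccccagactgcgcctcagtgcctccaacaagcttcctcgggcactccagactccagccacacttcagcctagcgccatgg
Nfkbia, chr12:55492598-55492897, minus strand: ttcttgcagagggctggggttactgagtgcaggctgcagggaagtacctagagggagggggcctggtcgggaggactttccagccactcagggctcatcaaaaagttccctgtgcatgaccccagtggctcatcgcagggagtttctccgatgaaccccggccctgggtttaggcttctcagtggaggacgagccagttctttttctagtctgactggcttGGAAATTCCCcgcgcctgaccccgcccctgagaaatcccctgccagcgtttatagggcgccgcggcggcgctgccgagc
Tnfaip3, chr10:19015361-19015660, minus strand: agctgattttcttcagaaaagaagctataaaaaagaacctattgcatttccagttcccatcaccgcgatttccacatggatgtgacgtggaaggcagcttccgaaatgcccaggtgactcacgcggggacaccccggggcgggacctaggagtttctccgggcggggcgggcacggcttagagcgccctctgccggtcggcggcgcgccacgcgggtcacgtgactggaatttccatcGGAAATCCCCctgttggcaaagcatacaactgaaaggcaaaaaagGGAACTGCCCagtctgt
The Cxcl2 window held 3 matches, 2 of which overlap on opposite strands, the Tnfaip3 window 2 and the Nfkbia window 1. Matches of the AP-1 motif TGANTCA were in 1 of these 11 promoters and in none of 16 promoters of immediate early and heat shock genes, against 8.97% of all genes. A match describes letters in this window and no binding was measured.

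For the genes higher in CBMA, the motif TTGCNNAA, a short form of the C/EBP site, was in 3 of 6 secondary granule promoters (50.0%; Ltf, Ngp and Lcn2) and in 1 of 5 primary granule promoters, against 12.2% of all genes. The E2F motif TTTCCCGC was in 5 of 27 S phase promoters (18.5%) and in 1 of 47 G2 and M phase promoters (2.13%), against 1.24% of all genes. Both motifs were also chosen after seeing the data and searched on both strands. The promoters of Ltf, Ngp and Mcm7, a helicase subunit at 39.5 and 10.6 CPM in neutrophils (3.74), show them in capitals.
Ltf, chr9:111019042-111019341, plus strand: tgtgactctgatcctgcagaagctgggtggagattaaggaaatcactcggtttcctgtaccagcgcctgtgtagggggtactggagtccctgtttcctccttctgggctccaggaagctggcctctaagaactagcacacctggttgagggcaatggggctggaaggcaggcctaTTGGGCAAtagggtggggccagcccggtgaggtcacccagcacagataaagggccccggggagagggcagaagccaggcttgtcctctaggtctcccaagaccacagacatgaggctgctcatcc
Ngp, chr9:110419558-110419857, plus strand: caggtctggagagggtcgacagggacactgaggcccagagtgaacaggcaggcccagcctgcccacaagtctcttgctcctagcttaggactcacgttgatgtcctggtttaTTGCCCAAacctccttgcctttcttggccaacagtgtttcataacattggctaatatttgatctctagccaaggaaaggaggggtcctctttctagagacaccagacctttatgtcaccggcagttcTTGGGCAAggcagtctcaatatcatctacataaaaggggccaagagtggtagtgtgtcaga
Mcm7, chr5:138171834-138172133, minus strand: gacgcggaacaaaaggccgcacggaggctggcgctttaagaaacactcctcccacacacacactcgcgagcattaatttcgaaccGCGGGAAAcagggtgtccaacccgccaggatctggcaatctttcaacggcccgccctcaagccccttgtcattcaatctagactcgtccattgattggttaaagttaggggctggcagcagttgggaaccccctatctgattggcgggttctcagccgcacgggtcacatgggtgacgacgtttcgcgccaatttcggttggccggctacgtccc

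Immediate early genes answer many stimuli within minutes and are also induced when tissue is dissociated. In neutrophils 6 of 18 measured genes of an immediate early and heat shock list were at least 1.5-fold lower in CBMA and none higher, with a median log2 ratio of -0.43, where 9.19% of all genes were lower. Atf3, a stress-induced transcription factor, stood at 104 CPM in CBMA and 429 in CBMD (0.241, 0.230 to 0.254). Nr4a1, a nuclear receptor induced by stimulation, stood at 150 and 353 CPM (0.424), and its relative Nr4a3 at 17.2 and 96.4 CPM (0.178). Fos and Junb, subunits of the AP-1 factor, had ratios of 0.539 and 0.551, and Zfp36, which degrades cytokine mRNAs, 0.543. The heat shock gene Hspa1b stood at 24.0 and 31.4 CPM (0.766). The part of handling in the activation difference was not tested.

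Monocytes showed the same direction for activation genes at lower levels. Of 12749 genes measured in the monocyte gate, 459 (3.6%) were at least 1.5-fold higher in CBMA and 1094 (8.58%) lower. All 17 activation genes were among the lower, with a median log2 ratio of -1.32. Cxcl2 stood at 73.4 CPM in CBMA and 358 in CBMD monocytes (0.205, 0.195 to 0.215), Il1b at 37.9 and 110 CPM (0.343) and Tnf at 33.1 and 80.6 CPM (0.410). A Cxcl2 UMI was seen in 5.26% and 13.5% of thinned monocytes, below the T-gate shares of 9.61% and 33.7%. With all UMIs, 503 of 2510 and 878 of 1891 monocytes had one. The T gate is no clean background, since 21 of its 230 and 21 of its 89 cells were also past the neutrophil gate. S100a8 and S100a9 took 0.973% and 0.863% of monocyte UMIs. In neutrophils they took 21.2% and 18.2%, and Cxcl2 stood there at 1977 and 7547 CPM. What part free RNA has in the monocyte shares and ratios was not tested.

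Several genes had lower ratios in monocytes than in neutrophils. Hspa1b, an inducible chaperone, had 712 UMIs in CBMA and 2270 in CBMD monocytes (ratio of CPM 0.249, 0.228 to 0.271), against 0.766 in neutrophils. Hbegf, a growth factor that binds the epidermal growth factor receptor, stood at 2.23 and 22.5 CPM (0.0989, 0.0745 to 0.129). A Hbegf UMI was seen in 0.199% and 2.17% of thinned monocytes (48 of 2510 and 245 of 1891 cells with all UMIs). Thinned T-gate cells had 0.873% and 5.62%, on 2 of 229 and 5 of 89 cells, and thinned neutrophils 0.406% and 0.709%, so the monocyte shares were not above those of the T gate and in CBMD were above those of neutrophils. The part of free RNA in the Hbegf ratio was not tested. In neutrophils Hbegf stood at 4.03 and 8.61 CPM (0.468). Efna2, a membrane ligand of Eph receptors, stood at 2.19 and 17.2 CPM in monocytes (0.127) and at 11.2 and 12.3 CPM in neutrophils (0.910, 0.754 to 1.10). Hk2, the hexokinase that commits glucose to glycolysis, stood at 161 and 310 CPM in monocytes (0.520) and at 189 and 176 CPM in neutrophils (1.07, 1.02 to 1.12). For Efna2 and Hk2 the intervals of both classes lie far apart.

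Further genes had low levels in monocytes. Vegfa, the vascular growth factor, stood at 7.12 CPM in CBMA and 27.9 in CBMD. A Vegfa UMI was seen in 0.877% and 3.60% of thinned monocytes, below the 1.75% and 4.49% of the T gate. With all UMIs the shares were 6.73% and 20.5% in monocytes and 6.96% and 13.5% in the T gate, whose median depth was lower. The part of free RNA in the Vegfa ratio was not tested. Pou3f1, a POU transcription factor, stood at 1.35 and 11.1 CPM (0.122), Slc5a3, the inositol transporter, at 2.19 and 14.1 CPM (0.155), and Caprin2, an RNA-binding protein, at 5.04 and 27.5 CPM (0.183). Of the immediate early and heat shock list 9 of 19 genes were lower, with a median log2 ratio of -0.47, among them Jun, an AP-1 subunit, at 459 and 966 CPM (0.475) and Egr1 at 106 and 214 CPM (0.496). Of the glycolysis and hypoxia list 4 of 15 were lower with a median of -0.02, and Ldha, lactate dehydrogenase, stood at 226 and 187 CPM (1.21).

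None of 11 classical monocyte genes, among them the gate genes Ly6c2 and Ccr2, was 1.5-fold apart in monocytes. Of those the gate did not use, Lyz2, lysozyme, stood at 14519 CPM in CBMA and 15845 in CBMD (0.916), and F13a1 at 1307 and 1407 CPM (0.929). Csf1r, the receptor for the monocyte growth factor, stood at 145 and 150 CPM (0.963). Antigen presentation genes of MHC class II had a median log2 ratio of -0.16, with H2-Eb1 at 53.0 and 77.3 CPM (0.686). S phase genes were slightly higher, with 2 of 38 past 1.5-fold and a median of 0.32, and none of 54 G2 and M phase genes was.

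Granule genes were higher in CBMA monocytes as in neutrophils. All 5 primary granule genes were higher, with a median log2 ratio of 1.48, and 5 of 7 secondary granule genes, with a median of 1.26. Mpo stood at 314 and 93.2 CPM (3.36, 3.21 to 3.53), Prtn3 at 973 and 446 CPM (2.18) and Camp at 635 and 107 CPM (5.95). Past both the monocyte and the progenitor gate were 116 CBMA and 30 CBMD cells. The 3 richest cells held 30.6% and 48.5% of the Camp UMIs of monocytes. The highest ratios in monocytes, 37.6 for the mast cell protease Prss34 and 12.3 for Mcpt8, rested on few cells, since 3 cells held 89.0% and 84.5% of their CBMA UMIs.

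**Figure D4:**
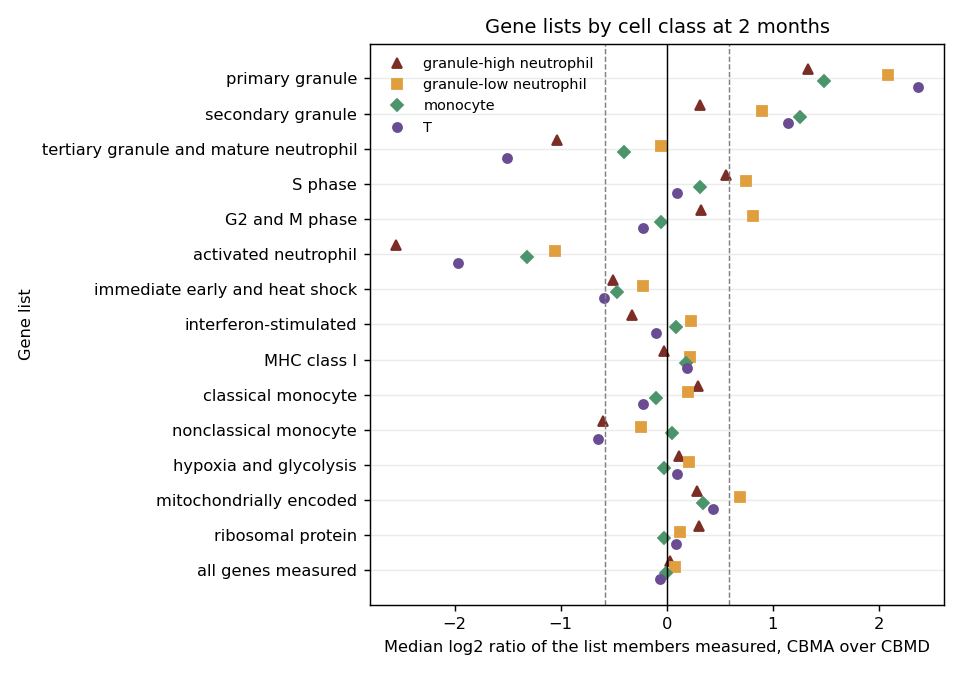
Median log2 ratio, CBMA over CBMD, of 14 gene lists and of all genes measured in granule-high neutrophils, granule-low neutrophils, monocytes and T cells at 2 months, with dashed lines at 1.5-fold. The activated neutrophil list lies left of -1 in all 4 classes (-2.55, -1.05, -1.32 and -1.96), the primary granule list right of 1 in all 4 (in T cells with 76.8% to 80.3% of the CBMA UMIs of Mpo, Elane and Prtn3 in 3 cells), and the interferon-stimulated list between the dashed lines.

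T cells were more frequent in CBMA, and all but 1 of 17 T-cell receptor and coreceptor genes were at least 1.5-fold higher over all cells, where 1000 of 15428 genes (6.48%) were higher and 1790 (11.6%) lower. Cd3e, a signalling chain of the receptor, stood at 8.83 CPM in CBMA and 3.53 in CBMD over all cells (2.50, 2.08 to 3.02), and its log2 ratio was 0.15 with equal class weights. In sums over all cells, more cells of a type and more RNA per cell cannot be told apart. Within the T gate, where 398 of 4422 genes (9.0%) were higher and 641 (14.5%) lower, 2 of the 17 were higher and 1 lower, with a median log2 ratio of 0.28. Cd8a, the coreceptor of cytotoxic T cells, stood at 202 and 170 CPM (1.19, 0.922 to 1.55) and Cd4, that of helper T cells, at 72.2 and 50.2 CPM (1.44, 0.907 to 2.36). Both intervals include 1. Trdc, the constant gene of gamma-delta T cells, stood at 73.1 and 149 CPM (0.492, 0.356 to 0.682), with 46.6% and 53.5% of its UMIs in 3 cells.

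Some genes of regulatory T cells had higher summed levels within the T gate of CBMA. Of 6 listed, 5 were measured and 3 were at least 1.5-fold higher, with a median log2 ratio of 1.23. Foxp3, the transcription factor that defines regulatory T cells, had 55 UMIs in 18 cells of CBMA and 5 UMIs in 2 cells of CBMD, 45.7 and 10.5 CPM (4.36, 1.76 to 14.0). Foxp3 was thus seen in 7.83% (4.70 to 12.1) of CBMA and 2.25% (0.273 to 7.88) of CBMD T-gate cells, and in 3.93% and 1.12% when thinned. In monocytes, which lack it, 0.199% and 0.212% of cells had a Foxp3 UMI with all UMIs counted. Ikzf2, the transcription factor Helios of regulatory T cells, stood at 233 and 98.4 CPM (2.36, 1.73 to 3.29) and Tnfrsf4, the costimulatory receptor OX40, at 105 and 20.9 CPM (5.00, 2.63 to 10.7). Il2ra, the interleukin 2 receptor alpha chain, did not share this, at 38.2 and 48.1 CPM (0.794, 0.471 to 1.37). The intervals of the Foxp3 shares overlap, so a difference in the share of such cells was not detectable at this number of cells. The Ikzf2 ratio rested on few CBMD cells, since 63.8% of its 47 UMIs there came from 3 cells. In thinned T-gate cells an Ikzf2 UMI was seen in 12.2% (8.28 to 17.2) in CBMA and 7.87% (3.22 to 15.5) in CBMD. These intervals overlap as well.

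The T gate of CBMD carried more RNA of neutrophils. S100a8 stood at 7471 CPM in CBMA and 19892 in CBMD T-gate cells (0.376). Without cells past more than 1 gate the log2 ratio of S100a8 was -0.02. Of 13 activation genes 12 were lower in the T gate, with a median log2 ratio of -1.96. Il1b, not a product of T cells, stood at 85.5 and 645 CPM (0.133) and Cxcl2 at 211 and 1314 CPM (0.160). With T-gate cells that carried neutrophil or monocyte signal left out, 189 and 58 cells remained. Over the 3032 genes then measured the median log2 ratio was -0.08. The 6 activation genes among them had a median of -0.65, and the regulatory T cell list, on few genes, one of 1.58. Primary granule genes had higher summed levels in the CBMA T gate, but a Mpo UMI was seen in 5.68% and 6.74% of thinned T-gate cells and a Prtn3 UMI in 3.49% and 4.49%, and without cells with neutrophil transcripts the log2 ratio of Prtn3 was -0.25. The part of neutrophil RNA in the other T-gate ratios was not tested. In the other direction Gm42418, which overlaps a ribosomal RNA repeat, took 110886 CPM in CBMA and 47861 in CBMD T-gate cells.

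Interferon-stimulated genes were near even over all cells. There 1 of 56 was at least 1.5-fold higher and 1 lower, with a median log2 ratio of 0.02 and summed levels of 15111 CPM in CBMA and 15804 in CBMD (0.956, 0.953 to 0.959). Isg15, the ubiquitin-like antiviral modifier, stood at 412 and 408 CPM over all cells (1.01, 0.991 to 1.03) and Ifit1, which binds viral RNA, at 142 and 133 CPM (1.07, 1.03 to 1.10). In neutrophils Isg15 stood at 601 and 642 CPM (0.935) and was seen in 38.8% and 39.0% of thinned cells. These ratios lay nearer to 1 than that of any activation gene.

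Within the classes the counts differed. In granule-low neutrophils 5 of 54 were higher and 1 lower, with a median log2 ratio of 0.23, where 11.7% of all genes were higher and 6.51% lower; Bst2, the tetherin that holds budding viruses, stood at 92.7 and 58.6 CPM (1.58, 1.46 to 1.72), while Cxcl10, a chemokine of both interferon and NF-kappaB, stood at 18.8 and 35.1 CPM (0.534). In granule-high neutrophils 2 of 45 were higher and 12 lower, with a median of -0.32, where 14.7% of all genes were higher and 10.4% lower. In monocytes the list median was under 1.5-fold, with single genes in both directions. Isg15 stood there at 287 and 230 CPM (1.25, 1.21 to 1.29), and the antiviral GTPase Mx2 at 39.2 and 77.6 CPM (0.505). In T cells 6 of 42 were higher and 9 lower, with a median of -0.10. The motif to which interferon-activated factors bind, GAAA repeated after any 2 bases on either strand, was in 28 of 43 promoters of the list (65.1%) against 3.99% of all genes.

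Erythroid genes were higher in CBMA over all cells. All 14 passed 1.5-fold, with a median log2 ratio of 3.30 and summed levels of 1979 and 196 CPM. Hbb-bs, a beta-globin gene, stood at 970 CPM in CBMA and 98.9 in CBMD (9.81, 9.51 to 10.1), with 28.0% and 92.2% of its UMIs in 3 cells. Slc4a1, the anion exchanger of the red cell membrane, had 356 UMIs against 6 (52.1, 23.7 to 143), and Klf1, the erythroid transcription factor, 50 against 4. Of the 35 erythroid cells of CBMA, 23 were also past the neutrophil gate, and the hemoglobin genes led the ratios of that gate, Hbb-bs at 1935 and 212 CPM (9.12). Red cell lysis came before capture in both libraries, and its part in this ratio was not tested.

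Other blood lineages also had higher levels in CBMA over all cells. Of 6 measured megakaryocyte genes 4 were at least 1.5-fold higher, among them the platelet chemokines Ppbp, with 435 UMIs against 46 (8.30, 6.11 to 11.5), and Pf4, at 89.3 and 43.1 CPM (2.07), while Itga2b, the platelet integrin, stood at 11.9 and 12.2 CPM (0.979, 0.871 to 1.10). Of 6 basophil and mast cell genes 5 were higher, with Mcpt8 at 93.3 and 60.6 CPM (1.54), 37.5% and 60.7% of it in 3 cells. Cd79a stood at 17.1 and 9.50 CPM (1.80, 1.60 to 2.02). Antibody genes varied, with ratios of 1.84 for Ighd, 1.27 for Ighm, 1.05 for Iglc2 and 1.12 for Igkc, the last at a log2 ratio of -1.52 without the cells of highest doublet score. Jchain, which links antibody chains, stood at 113 and 129 CPM (0.874), with 82.4% of its CBMD UMIs in 3 cells and a log2 ratio of -2.52 without the cells of highest doublet score. None of 9 stem and progenitor cell genes was higher, with Kit, the stem cell factor receptor, at 8.49 and 7.91 CPM (1.07, 0.931 to 1.24).

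Of 8 measured macrophage genes 3 were at least 1.5-fold lower in CBMA over all cells and 1 higher, with a median log2 ratio of -0.41, where 11.6% of all genes were lower. The 3 were C1qa, C1qb and C1qc, the chains of complement C1q made by resident macrophages, with ratios of 0.358, 0.330 and 0.425. C1qb stood at 4.77 CPM in CBMA and 14.4 in CBMD. For these genes 38.6% to 55.4% of the UMIs of a library came from 3 cells. The higher one was Vcam1, an adhesion molecule of erythroblastic island macrophages and stroma, at 6.99 and 3.30 CPM (2.12, 1.74 to 2.59). Prg2, the major basic protein of eosinophil granules, had 29 UMIs in CBMA and 276 in CBMD (0.0922, 0.0606 to 0.135), 54.0% of the latter in 3 cells.

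Stromal cells were as frequent in CBMA as in CBMD, and the genes that mark suture mesenchyme did not separate the sites. Of 10 genes 7 were measured over all cells and 1 was higher, with a summed ratio of 0.962 (0.891 to 1.04). Gli1, the hedgehog target that marks suture stem cells, had 8 UMIs in CBMA and 14 in CBMD (0.501, 0.182 to 1.28), which is too few to show a difference. Axin2, the Wnt target that marks another suture stem cell population, had 38 and 13 UMIs (2.56, 1.34 to 5.25). Prrx1, a transcription factor of skeletal mesenchyme, stood at 5.95 and 6.27 CPM (0.95, 0.804 to 1.12) and Ctsk, the bone protease cathepsin K, at 6.68 and 7.55 CPM (0.885, 0.759 to 1.03). Of these markers Axin2 alone was higher in CBMA, the library labelled as holding the suture.

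Matrix genes differed in kind within the 77 and 75 stromal cells. Col3a1, the fibrillar collagen of fibrous tissue, stood at 7502 CPM in CBMA and 3141 in CBMD stromal cells (2.39, 2.26 to 2.52), and Dpt, the fibroblast matrix protein dermatopontin, at 395 and 68.0 CPM (5.81, 4.16 to 8.30). Col1a1, the collagen of bone and fibrous tissue alike, stood at 13470 and 12802 CPM (1.05). Bglap, osteocalcin of mature osteoblasts, had 13 UMIs in CBMA and 230 in CBMD, 98.7% of the latter in 3 cells, and Spp1, osteopontin, stood at 305 and 1760 CPM (0.173), 83.2% of the latter in 3 cells. Cxcl12, the chemokine that holds blood cells in marrow, stood at 412 and 243 CPM (1.70, 1.37 to 2.10), 74.6% of the former in 3 cells. Thbs4, a thrombospondin of tendon and fibrous matrix, had 271 UMIs over all cells of CBMA, in 17 cells with 75.3% in 3 of them, and 8 in CBMD (29.7, 14.9 to 69.5).

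Vessel wall genes went the other way. All 6 mural genes, of pericytes and smooth muscle, were at least 1.5-fold lower in CBMA over all cells, with a median log2 ratio of -1.49 and a summed ratio of 0.444. Myh11, smooth muscle myosin, stood at 5.06 CPM in CBMA and 19.3 in CBMD (0.263, 0.228 to 0.302), Rgs5, a pericyte regulator of G-protein signalling, at 7.37 and 26.6 CPM (0.277), and Acta2, smooth muscle actin, at 38.0 and 65.5 CPM (0.580), but at a log2 ratio of -0.23 without cells past the other marker gates. In CBMA 83.4% of the Rgs5 UMIs came from 3 cells. Endothelial genes were even, with Kdr, the main receptor for vascular growth factor, at 4.43 and 4.15 CPM (1.07, 0.874 to 1.30).

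At the other ages the site ratio of the activation list, over all cells, was 0.263 at 12 months and 0.910 at 18 months, beside 0.319 at 2 months. The primary granule list had ratios of 3.02, 2.73 and 1.02 at 2, 12 and 18 months, and the secondary granule list 3.00, 2.69 and 1.45. Both directions were thus present at 2 and at 12 months. At 18 months the activation and primary granule ratios were near 1, while that of the secondary granule list was still 1.45. Camp in neutrophils had ratios of 6.98, 3.21 and 1.5, and Cxcl2 in neutrophils 0.262, 0.109 and 0.870. The T-cell receptor list had 2.26, 0.669 and 1.37, so its direction at 12 months was the opposite of that at 2 months. Each age is 1 library a site, and whether a ratio differs between ages was not tested.

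**Figure D5:**
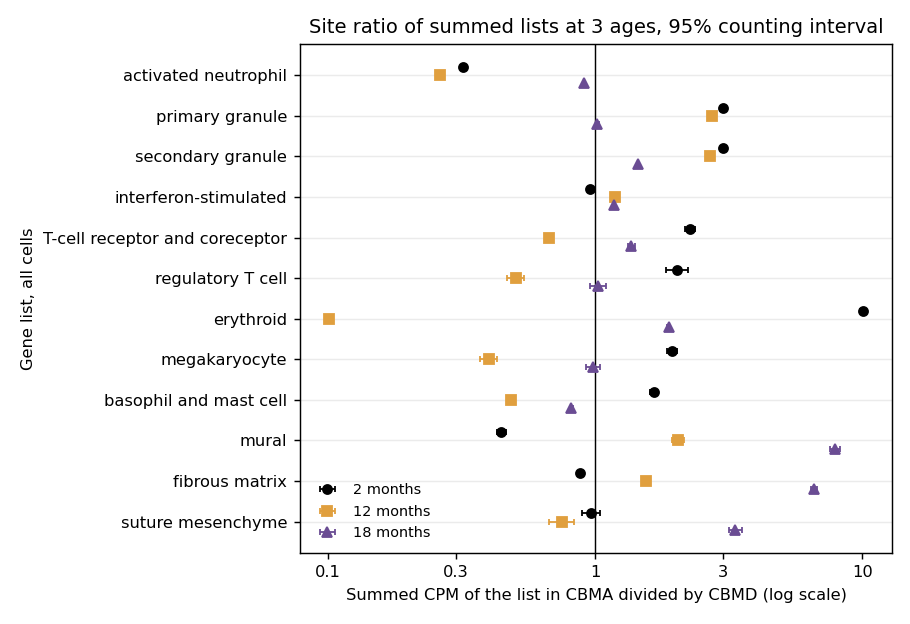
Summed CPM of 12 gene lists over all cells in CBMA divided by CBMD, on a log scale, at 2, 12 and 18 months, with exact 95% counting intervals and a line at 1. The activated neutrophil list lies left of 1 at 2 and 12 months (0.319 and 0.263) and the granule lists right of it, while the erythroid, T-cell and mural lists lie on different sides of 1 at different ages.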

How the data were processed

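Single cells of 6 pooled mouse libraries were captured on the 10x 3' platform, and the 2 libraries of 2 months were compared. Per the labels and methods, the authors used bcl2fastq and Cell Ranger 5.0.1 with GRCm38; the annotation release is not given in the sources used here. The deposited values are raw UMI counts per gene and cell, in filtered matrices. All 55450 gene IDs matched the GRCm38 annotation.

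Counts were summed over cells of a gate and divided by the gate's total (CPM). With 1 library a side no test was made: ratios carry exact 95% intervals from 2 Poisson sums and shares Clopper-Pearson intervals. Genes with at least 50 UMIs over both libraries were measured, and those at least 1.5-fold apart were counted; 41 gene lists were described by such counts and by medians. Up to 6 members per list were named by fold, with gate genes, genes the study names, and the 10 highest and 10 lowest ratios with at least 200 UMIs (0.5 added to rank). Other genes were named after their values were seen. Members and lists were chosen with earlier results of these data known. Doublets were kept and left out in an alternative (Scrublet scores). Alternatives also changed cell limits, gates, scaling, filters, fold, depth and cell weights. Further ones were chosen after seeing the data, namely the granule split, totals without rRNA-like and mitochondrial genes, other cell types left out, and T-gate cells with neutrophil transcripts left out. Calculations were tested on simulated data. Matrices were handled in Python 3.11.15 with scanpy 1.11.5 and numpy 2.4.6, tables in pandas 2.3.3 and figures in matplotlib 3.10.9; intervals came from scipy 1.17.1.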

Additional observations from a re-analysis of the deposited data

Results flagged for a closer look

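Some site ratios at 2 months lay on the other side of 1 at another age. Each age has 1 library a site, and the difference between ages was not tested. The summed regulatory T cell list over all cells had a ratio of CBMA over CBMD of 2.02 at 2 months and 0.504 at 12 months. The erythroid list had 10.1 and 0.101, the megakaryocyte list 1.94 and 0.399, and the basophil and mast cell list 1.66 and 0.483 at these ages. The mural list had 0.444 at 2 months, 2.04 at 12 months and 7.92 at 18 months.

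Shares of cells turned in the same way. The share of B lineage cells had a site ratio of 1.91 at 2 months, 0.318 at 12 months and 0.602 at 18 months. The T gate had 2.40, 0.519 and 1.24 at 2, 12 and 18 months, and the erythroid gate 10.8, 0.196 and 1.83. Erythroid cells numbered only 3 in CBMD at 2 months and 5 in CBMA at 12 months. The CBMA library of 12 months was the smallest, with 2718 cells.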

How the results depend on the processing

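No paired analysis was possible because each site had 1 library. Of the values recomputed for whole lists, shares and gene counts, 392 kept their direction and their side of 1.5-fold (for gene counts, stayed within 1.5 times). Within granule-high neutrophils the median log2 ratios of the G2 and M phase, S phase, mitochondrially encoded and secondary granule lists were 0.32, 0.56, 0.29 and 0.32, under 1.5-fold, and that of the tertiary granule list was -1.04, past it. The T-cell receptor list over all cells had 0.23 with equal class weights. The immediate early list had -0.48 over all cells by mean share per cell, and -0.63 in monocytes with at least 20 UMIs. The log2 ratio of Cd79a over all cells turned to -0.39 without cells past the other marker gates, which include the B lineage gate, and that of Efna2 in neutrophils to 1.57 in granule-high cells. That of Igkc over all cells turned to -1.52 without the cells of highest doublet score, and that of Prtn3 in the T gate to -0.25 without cells with neutrophil transcripts. Of the other values for single named genes, 1024 kept direction and side, 28 came under 1.5-fold and 16 went past it. The T share ratio was 3.07 without cells past more than 1 gate.

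Counts of genes moved with the limits. At 2-fold, higher and lower genes numbered 265 and 698 in all cells, 1021 and 389 in neutrophils, 113 and 477 in monocytes and 86 and 230 in T cells. With at least 200 UMIs they numbered 568 and 922, 1310 and 652, 180 and 482, and 42 and 119. With at least 20 UMIs there were 2736 lower genes in all cells, 782 higher and 1900 lower in monocytes, and 1080 higher and 1264 lower in T cells. Higher genes numbered 1121 in granule-high and 1302 in granule-low neutrophils. In T cells there were 249 higher and 314 lower without cells past more than 1 gate, 182 higher with sums thinned to the smaller total, and 602 higher with totals that leave out rRNA-like and mitochondrial genes. Except where a setting's own limit or split sets the number, the cause was not tested.

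The small number of T, stromal and erythroid cells limited their values most, and no setting replaces mice as replicates.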

Other observations

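Most mitochondrially encoded genes, which supply subunits of the respiratory chain, were higher in CBMA neutrophils. Of 13, 10 were at least 1.5-fold higher and 1 lower, with a median log2 ratio of 1.16. The total did not share this, since all mitochondrial UMIs together were 1.69% of CBMA and 1.64% of CBMD neutrophil UMIs. In granule-low cells that total was 1.43% and 1.58%, and in granule-high cells 2.38% and 2.72%. In monocytes 4 mitochondrially encoded genes were higher and 1 lower, with a median of 0.34. Nuclear genes of oxidative phosphorylation had a median of 0.30 in neutrophils, with 14 of 71 higher and none lower, near the 20.2% of all neutrophil genes that were higher. Ribosomal protein genes were near even in neutrophils, with 8 of 76 higher and 3 lower and a median of 0.13, below that share.

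Nonclassical monocyte genes were lower in part in CBMA neutrophils, with 4 of 8 lower and 1 higher where 9.19% of all genes were lower and 20.2% higher, and had a median of 0.05 in monocytes, with 2 of 8 lower. MHC class I genes, which present antigen on all nucleated cells, had a summed ratio of 1.08 (1.07 to 1.08) over all cells.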
